A study of Mus musculus with 12 samples.

Results

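The SLC25 mitochondrial carriers were examined in FL5.12 MycER cells, a mouse line, across untreated cells and cells given 4-hydroxytamoxifen (OHT), the complex I inhibitor IACS-010759 (IACS) or both. The members are the genes with a symbol of the form Slc25a and a number whose level reached 1 RPKM (reads per kilobase of gene, scaled to a fixed library total) in 3 or more of the 12 libraries. Of the 47 such symbols among 21671 genes, 34 met this rule and 13 did not. All 12 libraries came from the BALB/c line FL5.12, labelled as prolymphocytic, carrying a retroviral MycER chimera, a Myc protein that OHT activates. The transduced cells were a drug-selected pool and not a clone. Untreated cells received neither compound, OHT cells received 100 nM OHT for 72 h, IACS cells received 135 nM IACS-010759 for 24 h, and OHT_IACS cells were primed with 100 nM OHT for 48 h and then kept in OHT with 135 nM IACS-010759 for 24 h. According to the study, cells were passaged in medium with reduced glucose before experiments with IACS-010759. Each condition had 3 replicates, described in the study as biological. No library of parental cells given OHT was analysed here, so that MycER activation and other effects of OHT cannot be told apart.

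SLC25 carriers are small proteins of the mitochondrial inner membrane that exchange metabolites between cytosol and matrix, such as ADP for ATP, phosphate, carboxylates, amino acids, nucleotides and cofactors. They alternate between a state open to the cytosol and a state open to the matrix, and most exchange one substrate for another. In proliferating blood cell lines they link respiration with nucleotide, heme and amino acid synthesis, since parts of these pathways lie on either side of the membrane.

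The totals by which the libraries had been normalized ran from 10376530 to 14550158 reads, with 4199266 to 5762340 reads on genes. The members took 0.336% to 0.366% of the reads on genes in every library. In genes under 0.3 reads per base, the replicates of a condition differed by more than sampling noise in all 12 pairs, with a chi-square per gene of 1.06 to 2.78 beside 1 for noise alone (lowest for IACS replicates 1 and 2, chi-square test p = 7.2e-05). Of the markers checked against the label, Pax5, Rag1 and Il7r were at 0 in all libraries and Ebf1 did not exceed 0.0148 RPKM, whereas Cd79a and Cd79b had medians of 1.07 and 2.21 RPKM, the IL-3 receptor genes Il3ra, Csf2rb and Csf2rb2 had medians of 7.64, 43.6 and 22.6 RPKM, and the myeloid gene Mpo ran from 8.65 to 13.7 RPKM. The defining markers of the B lineage were thus largely absent from these libraries.

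In untreated cells 5 carriers, of ADP and ATP, carboxylates and glutathione, had the highest levels of the family. RPKM are levels per gene length, but since reads on the most abundant members followed the library total less closely than those on others, differences in level between abundant and low members also depend on the size of the libraries. Slc25a5, an ADP/ATP carrier, had the highest level at 90.0 ± 2.17 RPKM (SD, n = 3). It was followed by the citrate carrier Slc25a1 (55.6 ± 2.37), the oxoglutarate carrier Slc25a11 (54.6 ± 1.27), the ADP/ATP carrier Slc25a4 (52.0 ± 0.936), and the glutathione carrier Slc25a39 (50.9 ± 1.64). These 5 genes together held 51.8% of the summed RPKM of the 34 members. The ranges of Slc25a1 and Slc25a11 overlapped, as did those of Slc25a4 and Slc25a39, so that the order within these pairs is not resolved.

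A middle group of 23 members lay between 23.1 and 4.59 RPKM. It was led by the aspartate/glutamate carrier Slc25a12 (23.1 ± 0.723), the phosphate carrier Slc25a3 (21.7 ± 0.303), the peroxisomal cofactor carrier Slc25a17 (20.3 ± 0.539) and the other aspartate/glutamate carrier, Slc25a13 (17.2 ± 0.611), with Slc25a44, a carrier of branched-chain amino acids, next (16.8 ± 0.283). The ranges of the last pair overlapped. Below them stood the NAD carrier Slc25a51 (15.6 ± 0.454) and Slc25a45 (13.9 ± 0.420), whose substrate is less settled. From Slc25a20 (11.6 ± 0.0707, acylcarnitine) over Slc25a28 (iron), Slc25a46 (a protein of the outer membrane) and Slc25a32 (folate or FAD) to Slc25a38 (10.7 ± 0.874, glycine) each range overlapped the next, as was the case from Slc25a30 (9.73 ± 0.651) over Slc25a10 (dicarboxylates) and Slc25a36 (pyrimidine nucleotides) to Slc25a16 (9.33 ± 0.178, coenzyme A).

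Slc25a33, the other pyrimidine nucleotide carrier, stood alone at 7.91 ± 0.392 RPKM in untreated cells. Slc25a22 (glutamate) and Slc25a37 (iron) overlapped at 6.63 ± 0.668 and 6.50 ± 0.217, as did Slc25a25 (ATP-Mg/phosphate) and Slc25a15 (ornithine) at 5.60 ± 0.147 and 5.42 ± 0.115, and Slc25a23, a further ATP-Mg/phosphate carrier, followed at 4.59 ± 0.277. The lowest 6 members were Slc25a42 (coenzyme A, 2.20 ± 0.296), Slc25a43 (2.02 ± 0.192), Slc25a26 (S-adenosylmethionine, 1.73 ± 0.164), Slc25a40 (glutathione, 1.496 ± 0.103), Slc25a14 (an uncoupling-protein-like carrier, 1.31 ± 0.0899) and Slc25a29 (basic amino acids, 1.30 ± 0.227). Among these, every range overlapped the next except that of Slc25a40 with Slc25a14.

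**Figure D1:**
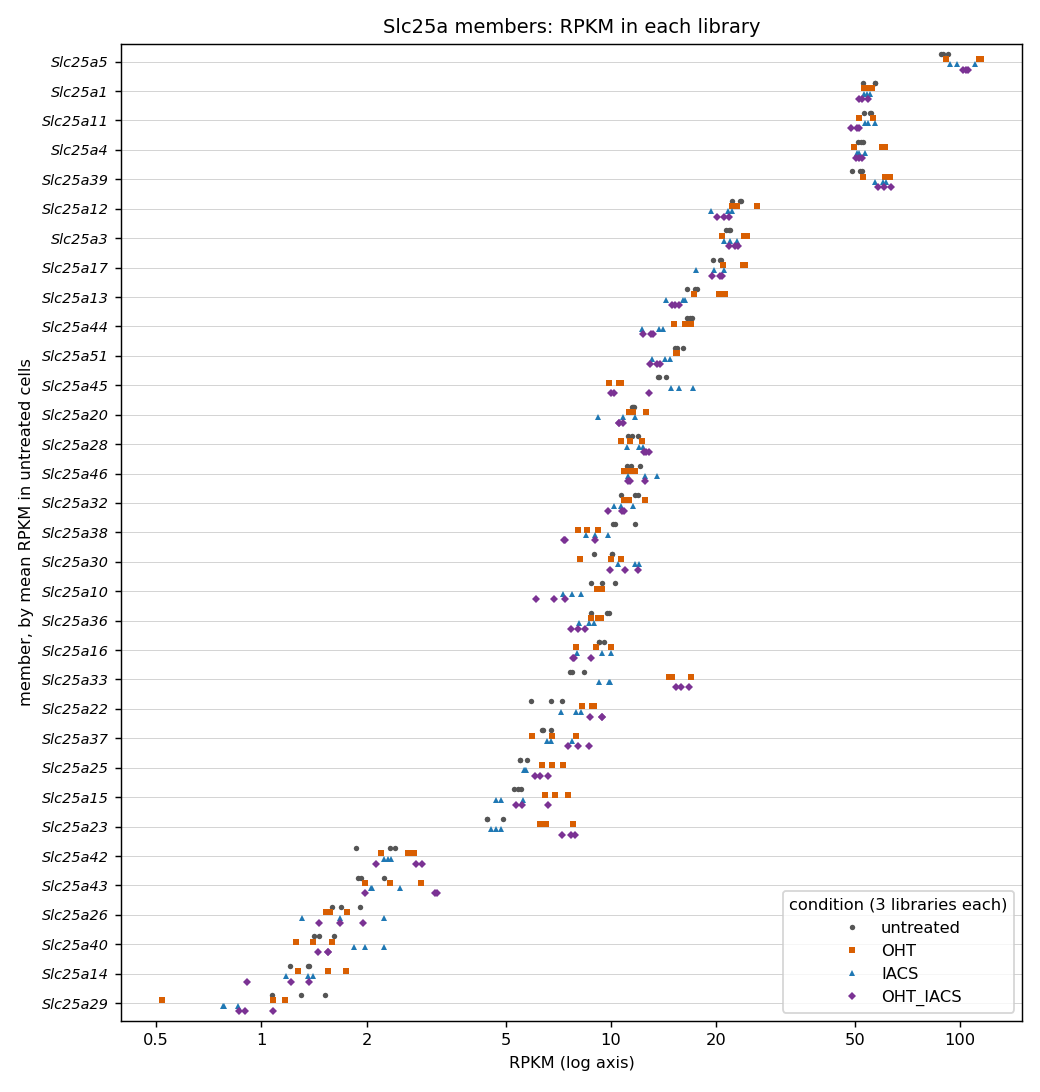
RPKM of 33 of the 34 members (log axis) in each of the 12 libraries, 3 per condition, with members ordered by their mean in untreated cells. Slc25a5 stands apart at the top near 90.0 RPKM, 4 members follow between 50.9 and 55.6 RPKM, and the libraries of Slc25a33 with OHT lie apart from those without it.

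At the threshold of the rule, Slc25a29 reached 1 RPKM in 6 of the 12 libraries and Slc25a14 in 11, and the other 32 members in all 12. Of the 13 symbols outside it, Slc25a47 came nearest with a highest level of 0.811 RPKM. It was followed by Slc25a53 (0.758), Slc25a2 (0.728), Slc25a18 (0.492), Slc25a41 (0.418), Slc25a35 (0.329) and Slc25a34 (0.162). Slc25a54 and Slc25a21 had at most 1 read in any library, while Slc25a24, Slc25a27, Slc25a31 and Slc25a48 were listed at 0 in all 12. Of the 4 ATP-Mg/phosphate carriers, Slc25a23 and Slc25a25 were therefore members whereas Slc25a24 and Slc25a41 were not. Of the ADP/ATP carriers, Slc25a31 was not a member.

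Reads on the most abundant members varied less than the totals of their libraries. Slc25a5 had 1479 to 1592 reads in the 12 libraries at 1.247 reads per base of the gene, whereas the totals varied as given above. The slope of its log2 reads on the log2 total within conditions was 0.216, where 1 is proportional. Slopes were 0.464 for Slc25a4, 0.564 for Slc25a39, 0.540 for Slc25a3, 0.846 for Slc25a1 and 0.825 for Slc25a11. Among all genes tested, the median slope was 0.184 for the 84 genes at 1 read per base or more, 0.594 for the 680 genes from 0.5 to 1, and 1.20 and 1.38 for those from 0.1 to 0.3 and under 0.1. These last ranges hold 19 and 10 of the members, among them all 15 called in any comparison. The RPKM of Slc25a5 was thus higher at small totals, at 115 and 114 in the 2 OHT libraries with the smallest totals and 91.2 in the other. In the lower ranges, with median slopes above 1, RPKM tended instead to be lower at small totals. Totals ran from 13375674 to 14550158 reads in untreated, 10376530 to 13956222 in OHT, 11133789 to 13729131 in IACS and 11792608 to 11913079 in OHT_IACS libraries. Condition and total were thus in part confounded. The part of this relation in the levels and changes of the members, abundant or not, was not tested. With the total as a covariate, 5 of the 28 calls of single members over the comparisons were lost and 9 were gained, and these values are given beside the members named.

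**Figure D2:**
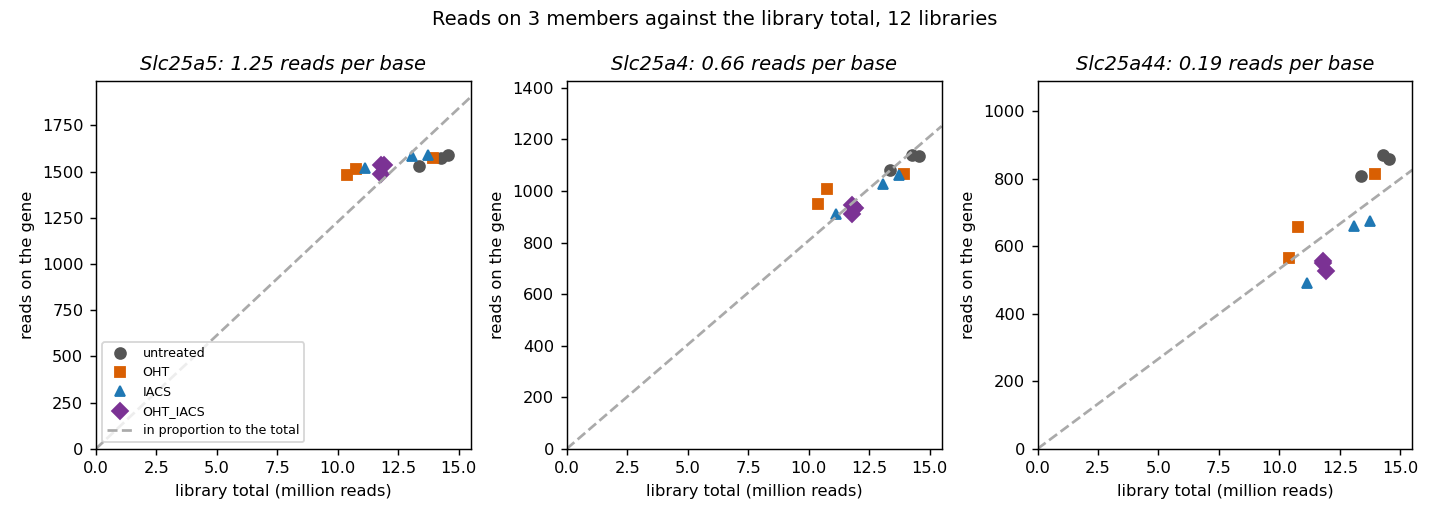
Reads on Slc25a5, Slc25a4 and Slc25a44 (vertical axes) against the library's total reads (horizontal axes) in the 12 libraries, with a dashed line for reads in proportion to the total. Reads on Slc25a5 stay between 1479 and 1592 at all totals, whereas those on Slc25a44 range from 490 to 871.

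To ask which carriers changed with MycER activation, OHT was compared with untreated cells. Group means of log2(RPKM + 0.1), with libraries first put on 1 scale by median ratios to a geometric-mean library, were compared with limma in 1 fit of the 12 libraries, and genes with a Benjamini-Hochberg adjusted p under 0.05 over the 9745 genes tested were called. Fold changes are on this log2 scale and RPKM are as deposited. Of the 34 members, 6 rose and 2 fell, where 18.2% of all genes tested were called higher and 18.2% lower. The median log2 fold change was 0.01 for the members and 0.01 for all genes. With quantile normalization, 5 members were called higher and 4 lower. As these are bulk RNA measures scaled to the library, a change in total RNA per cell would not be seen in them.

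The largest rise was that of Slc25a33, which imports pyrimidine nucleotides into the matrix. Its RPKM were 8.36, 7.65 and 7.72 in untreated cells and 14.99, 14.7 and 17.0 with OHT. The OHT libraries lay well above all untreated libraries, without overlap. The log2 fold change was 0.94 (SE 0.0614, limma, adjusted p = 1.56e-07), or 1.92-fold. By contrast Slc25a36, the other pyrimidine nucleotide carrier, had 9.75, 9.85 and 8.76 RPKM in untreated cells and 9.35, 9.18 and 8.77 with OHT. These values overlapped, and the log2 fold change of -0.07 (95% interval -0.21 to 0.06) was not called.

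Both ATP-Mg/phosphate carriers among the members, which adjust the adenine nucleotide content of the matrix, rose as well. Slc25a23 had 4.43, 4.43 and 4.91 RPKM in untreated cells and 6.54, 7.78 and 6.26 with OHT. All OHT libraries were higher, and the log2 fold change was 0.54 (SE 0.0762, limma, adjusted p = 0.000117). Slc25a25 had 5.51, 5.51 and 5.77 RPKM against 6.78, 6.36 and 7.29, again without overlap, with a log2 fold change of 0.26 (SE 0.0628, limma, adjusted p = 0.00652). With the library total as a covariate the rise of Slc25a25 was not called, at 0.16 (limma, adjusted p = 0.113). Of the 5 carriers of ATP, ADP and phosphate tested, these 2 rose and none fell, where 18.2% of all genes tested were called higher and 18.2% lower. A group of 5 is too small to be told apart from these shares.

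Among the 7 amino acid carriers tested, 3 rose and 1 fell, beside shares of 18.2% higher and 18.2% lower among all genes tested. This group too is small, and its count was not tested against these shares. Slc25a22, a glutamate carrier, had 5.91, 7.23 and 6.76 RPKM in untreated cells and 8.26, 8.83 and 8.96 with OHT. Slc25a15, which exchanges ornithine for citrulline in the urea cycle, had 5.30, 5.53 and 5.43 against 6.95, 7.55 and 6.48. The groups did not overlap for either gene. The log2 fold changes were 0.37 (SE 0.0670, limma, adjusted p = 0.000935) and 0.34 (SE 0.0877, limma, adjusted p = 0.0091).

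Slc25a13, an aspartate/glutamate carrier of the malate-aspartate shuttle, had 17.5, 17.6 and 16.5 RPKM in untreated cells and 17.3, 20.4 and 21.2 with OHT. OHT replicate 1 lay within the untreated range, and the log2 fold change of 0.16 (SE 0.0582) was close to the threshold (limma, adjusted p = 0.0432). This call was lost without any 1 of 10 libraries, namely all but OHT replicate 1 and IACS replicate 3, with an adjusted p from limma of 0.0514 to 0.18. Its close relative Slc25a12 had a log2 fold change of 0.02 that was not called (95% interval -0.10 to 0.14).

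The members that fell were Slc25a45 and Slc25a38. Slc25a45 had 13.6, 13.7 and 14.4 RPKM in untreated cells and 9.89, 10.7 and 10.5 with OHT, a clear separation with a log2 fold change of -0.44 (SE 0.0726, limma, adjusted p = 0.00039). Slc25a38, a glycine carrier needed for heme synthesis, had 10.1, 10.3 and 11.7 against 8.56, 9.21 and 8.04. These groups did not overlap either, and the log2 fold change was -0.33 (SE 0.0799, limma, adjusted p = 0.00564). With the total as a covariate the change of Slc25a38 was -0.25 and was not called (limma, adjusted p = 0.098). Of the other groups, Slc25a33 was the only called member among 11 carriers of nucleotides, cofactors and glutathione, and none of the 3 carriers of di- and tricarboxylates, the 2 iron carriers, the 2 uncoupling-protein-like carriers, Slc25a20 and Slc25a46 was called in this fit.

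The 26 members not called had log2 fold changes from -0.52 (Slc25a29) to 0.21 (Slc25a5). For 2 abundant members the sign or size turned on how the total was treated. Slc25a5 had a log2 fold change of 0.21 (limma, adjusted p = 0.117), or -0.04 with the total as a covariate. For Slc25a39 the value was 0.18 (limma, adjusted p = 0.0681), or 0.02 with the covariate.

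**Figure D3:**
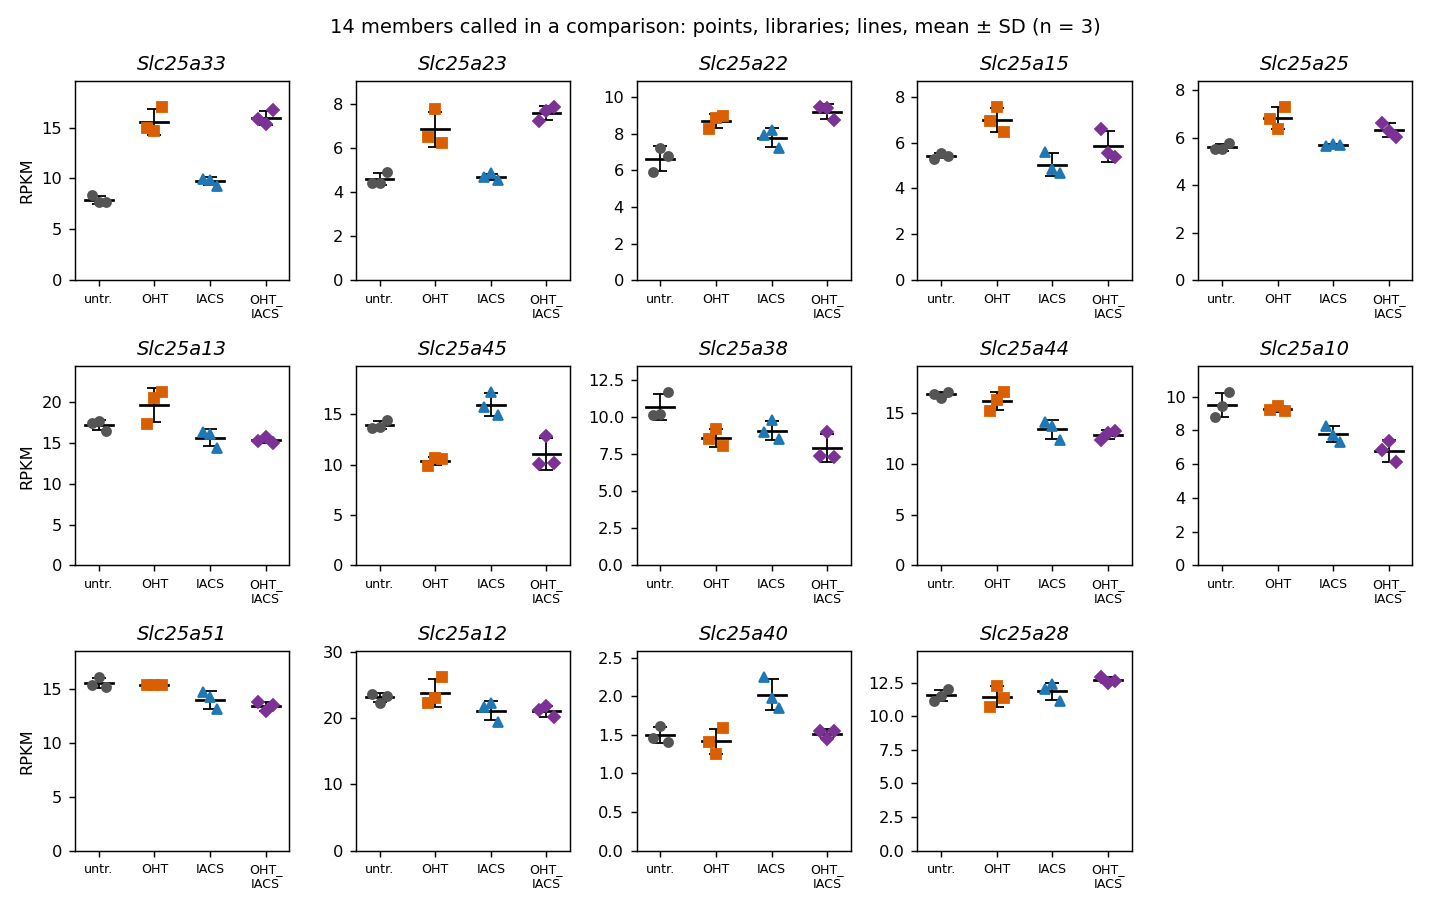
RPKM (vertical axes, from 0) of 14 of the 15 members called in any comparison, with a point per library and lines for the mean ± SD of the 3 libraries of a condition. Slc25a33 and Slc25a23 are higher in every library with OHT than in any without it, Slc25a45 is lower in every library with OHT than in any without it, and Slc25a44 and Slc25a10 are lower in every library with IACS-010759 than in any without it.

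The promoter sequences of the members were then searched for the E box CACGTG, the palindromic motif that Myc binds with Max. RefSeq windows (GRCm38.p6) of 250 bases before and 50 after the start site were given for 27 of the 34 members, 35 windows in all. The motif was present in 7 of these windows (20%), in 6 of the 27 genes, against 7.15% of 32851 windows of all genes. The windows of Slc25a14 that held it overlap and share the same site, which is counted in each. Unlike the members, the windows of all genes were not limited to genes above the RPKM threshold, so that the shares are not of like sets. The difference was not tested. The motif lay upstream of Slc25a1, Slc25a13, Slc25a14, Slc25a15, Slc25a33 and Slc25a36. Of the members that rose with OHT, Slc25a33, Slc25a15 and Slc25a13 held it. The other members that rose, Slc25a22, Slc25a23 and Slc25a25, were not among the genes with the motif. Whether each of these had a window is not given here. The sites of Slc25a33, Slc25a15 and Slc25a13 are shown on the strand of the gene, up to the start site or 40 bases to each side. The E box is in capitals. The first base of the motif lay at -8, -77 and -125 relative to the start.
Slc25a33 (chr4:149774268-149774315, minus strand): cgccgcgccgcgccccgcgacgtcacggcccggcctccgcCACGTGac
Slc25a15 (chr8:22398309-22398394, minus strand): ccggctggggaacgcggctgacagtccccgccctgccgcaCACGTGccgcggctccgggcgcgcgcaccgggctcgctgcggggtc
Slc25a13 (chr6:6217253-6217338, minus strand): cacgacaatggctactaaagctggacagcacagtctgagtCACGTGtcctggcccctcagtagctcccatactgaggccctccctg
The windows of Slc25a1, Slc25a14 and Slc25a36 held the motif as well, and these genes were not called. TGATGNAA, a composite element bound by C/EBP and ATF factors, and GCATGCGC, the core bound by NRF1, were found in 0 of the 35 member windows, against 3.97% and 2.71% of all windows. With only 35 windows, a count of 0 cannot be told apart from shares this low. Both strands were searched. A match is a description of these letters and not of binding.

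The response to IACS-010759 was examined first in nonprimed cells. Of the 34 members, 2 rose and 5 fell against untreated cells, where 8.15% of all genes tested were called higher and 7.74% lower. The median log2 fold change was -0.03 for the members and 0.00 for all genes. With RPKM as deposited, without rescaling, 3 members were called higher and 3 lower. This comparison shares the untreated libraries with that of OHT.

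The members that fell carry amino acids, dicarboxylates or cofactors. Slc25a44 had 16.9, 16.5 and 17.0 RPKM in untreated cells and 14.1, 13.7 and 12.3 with IACS-010759. All treated libraries were lower, with a log2 fold change of -0.36 (SE 0.0475, limma, adjusted p = 0.000273). Slc25a10, which exchanges malate or succinate for phosphate, had 8.78, 9.45 and 10.3 against 8.24, 7.72 and 7.30, also without overlap, and a log2 fold change of -0.32 (SE 0.0682, limma, adjusted p = 0.00755).

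Slc25a51, which brings NAD into the matrix, had 15.4, 16.1 and 15.3 against 14.7, 14.3 and 13.1. These groups differed little but did not overlap, with a log2 fold change of -0.18 (SE 0.0481, limma, adjusted p = 0.0219). Slc25a38 had 8.997, 9.80 and 8.51 RPKM with IACS-010759, all below the untreated libraries, and a log2 fold change of -0.26 (SE 0.0799, limma, adjusted p = 0.0428), or -0.21 with the total as a covariate, which was not called (limma, adjusted p = 0.117).

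Slc25a33 rose with IACS-010759 too, to 9.98, 9.90 and 9.28 RPKM. Each treated library was above each untreated one, and the log2 fold change was 0.27 (SE 0.0614, limma, adjusted p = 0.0105), beside 0.94 with OHT. Slc25a40, the less abundant glutathione carrier, had 1.46, 1.61 and 1.41 RPKM in untreated cells and 2.25, 1.97 and 1.85 with IACS-010759, with a log2 fold change of 0.38 (SE 0.122, limma, adjusted p = 0.0489), or 0.34 and not called with the covariate (limma, adjusted p = 0.0962). Its paralog Slc25a39 had a log2 fold change of 0.20 that was not called (limma, adjusted p = 0.0852).

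Leaving out 1 library ended some of these calls. Slc25a40 was not called without any 1 of 10 libraries (all but OHT replicates 1 and 2, limma adjusted p of 0.0513 to 0.167), Slc25a38 not without untreated replicate 1, 2 or 3 or IACS replicate 1 or 3 (0.0646 to 0.163), and Slc25a51 not without untreated replicate 1 or 2 or IACS replicate 2 or 3 (0.0527 to 0.0919).

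In OHT-primed cells most of the carriers called with IACS-010759 fell. Of the 34 members, 1 rose and 7 fell in OHT_IACS against OHT, where 11.9% of all genes tested were called higher and 11.8% lower. The median log2 fold change was -0.08 for the members and -0.01 for all genes. With RPKM as deposited 0 members were called higher and 4 lower, and with quantile normalization 2 and 6. This comparison shares the OHT libraries with that of OHT against untreated cells, so that a high OHT value enters both with opposite sign.

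Slc25a10 had the largest fall, from 9.23, 9.42 and 9.12 RPKM with OHT to 6.86, 7.39 and 6.11 with both compounds. The groups lay far apart, with a log2 fold change of -0.45 (SE 0.0682, limma, adjusted p = 0.000601). Slc25a44 fell from 15.2, 16.3 and 17.0 to 12.4, 13.04 and 13.2 RPKM, without overlap, with a log2 fold change of -0.33 (SE 0.0475, limma, adjusted p = 0.000419). For Slc25a51 the OHT libraries stood at 15.4 in all 3 replicates and the OHT_IACS libraries at 13.8, 12.99 and 13.5, with a log2 fold change of -0.20 (SE 0.0481, limma, adjusted p = 0.0108).

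The aspartate/glutamate carriers, which export aspartate from the matrix, were both lower in primed cells with IACS-010759. Slc25a13 went from 17.3, 20.4 and 21.2 RPKM to 15.2, 15.7 and 14.99, and all OHT_IACS libraries were below all OHT libraries. Its log2 fold change was -0.35 (SE 0.0582, limma, adjusted p = 0.00109). Slc25a12 went from 22.2, 23.01 and 26.1 RPKM to 21.2, 21.8 and 20.2, without overlap but with a small gap, and its log2 fold change was -0.17 (SE 0.0553, limma, adjusted p = 0.0379). In nonprimed cells the values were -0.17 and -0.16, neither called (limma, adjusted p = 0.0671 for each).

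The other calls lay close to the threshold. Slc25a15 had 6.61, 5.57 and 5.35 RPKM in OHT_IACS cells, of which replicate 1 lay within the OHT range, and a log2 fold change of -0.26 (SE 0.0877, limma, adjusted p = 0.0483). Slc25a28, one of the mitoferrins that import iron for heme and iron-sulfur clusters, was the only member that rose in this fit, from 10.7, 12.3 and 11.4 to 12.9, 12.5 and 12.6 RPKM, with a log2 fold change of 0.15 (SE 0.0490, limma, adjusted p = 0.0419). The other mitoferrin, Slc25a37, had a log2 fold change of 0.23 with overlapping groups that was not called (limma, adjusted p = 0.0758).

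Several of these calls rested on single libraries. Slc25a12 was not called without untreated replicate 3, OHT replicate 3 or any OHT_IACS replicate (limma adjusted p of 0.0504 to 0.157), and Slc25a15 not without any untreated replicate, OHT replicate 1 or 2, IACS replicate 2 or OHT_IACS replicate 2 or 3 (0.0542 to 0.168). Slc25a28 was not called without untreated replicate 1 or 2, OHT replicate 1 or 3, IACS replicate 1 or OHT_IACS replicate 1 or 3 (0.052 to 0.126).

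The responses of nonprimed and primed cells to IACS-010759 share no library and can be set side by side. Of the 7 members called in nonprimed cells and the 8 called in primed cells 4 fell in both, among them Slc25a10, Slc25a44 and Slc25a51. The share of all genes tested that was called in both was not counted, so that this overlap has no background beside it. Over the 34 members the log2 fold changes had a Pearson's r of 0.563 and a Spearman's rho of 0.718, and 31 (91.2%) had the same sign. Over all 9745 genes tested the values were 0.516 and 0.587, with 69.9% of the same sign. These are correlations across genes of the same libraries, and genes are not independent replicates.

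Slc25a33, Slc25a38 and Slc25a40 were called in nonprimed cells alone, and Slc25a12, Slc25a13, Slc25a15 and Slc25a28 in primed cells alone. The difference between the responses was tested as an interaction. None of the 34 members passed it in limma, where 0.144% of all genes tested were called. At an unadjusted p under 0.05 there were 2 members, Slc25a33 with a difference of -0.23 (limma, adjusted p = 0.309) and Slc25a13 with -0.18 (limma, adjusted p = 0.382). Under this looser threshold a share of 0.05 is expected with no difference at all, and the share of all genes was not counted. With weights per library 3 members were called, and with voom on the recovered reads 0. The widest difference in size, that of Slc25a29 at 0.74, had a 95% interval of -0.01 to 1.48, and this gene had only 11 to 40 reads per library.

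**Figure D4:**
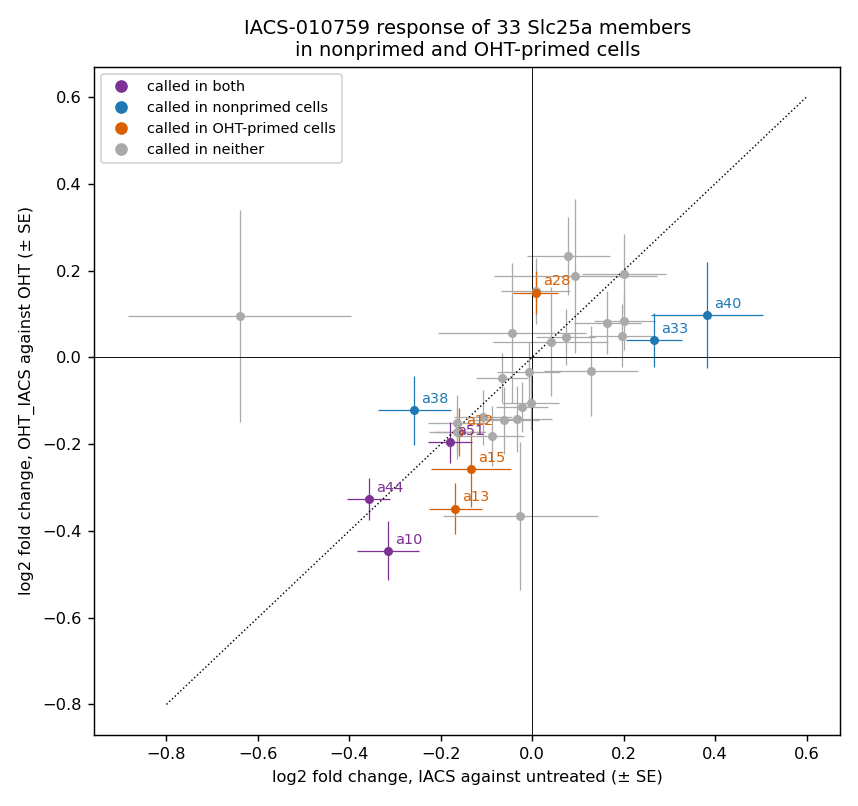
Log2 fold change of 33 of the 34 members with IACS-010759 in nonprimed cells (horizontal axis) and in OHT-primed cells (vertical axis), with bars for the standard error and a dotted line for equal values. Slc25a10, Slc25a44 and Slc25a51 lie in the lower left and were called in both, and Slc25a33 and Slc25a40 lie to the right of the line.

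The effect of OHT in the presence of IACS-010759 was measured as OHT_IACS against IACS, which shares no library with OHT against untreated. Of the 34 members 3 rose and 2 fell, where 12.3% of all genes tested were called higher and 14.2% lower, and the median log2 fold change was 0.00 for the members and 0.00 for all genes. Slc25a33 had 15.9, 15.3 and 16.7 RPKM in OHT_IACS cells, above the 3 IACS libraries, with a log2 fold change of 0.72 (SE 0.0614, limma, adjusted p = 2.61e-06). Slc25a23 had 4.70, 4.85 and 4.56 RPKM in IACS cells and 7.24, 7.69 and 7.88 in OHT_IACS cells. Here too the groups were well apart, and the log2 fold change was 0.69 (SE 0.0762, limma, adjusted p = 2.62e-05).

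Slc25a45 had 15.7, 17.2 and 14.9 RPKM in IACS cells and 10.01, 12.8 and 10.2 in OHT_IACS cells, with a log2 fold change of -0.53 (SE 0.0726, limma, adjusted p = 0.000151). Slc25a22 had 7.94, 8.19 and 7.20 against 9.44, 9.41 and 8.74, with a log2 fold change of 0.25 (SE 0.0670, limma, adjusted p = 0.0151). The groups did not overlap in either case. These 4 genes were thus called with OHT both in the absence and in the presence of IACS-010759. The share of all genes tested that was called in both comparisons was not counted, so that it cannot be said whether this overlap is particular to the carriers.

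Slc25a40 fell, from the raised values of the IACS cells to 1.55, 1.45 and 1.55 RPKM, with a log2 fold change of -0.38 (SE 0.122, limma, adjusted p = 0.0327). This comparison shares the IACS libraries with that of IACS against untreated, in which the same gene rose. The call of Slc25a40 was lost without IACS replicate 1 or 2 or any OHT_IACS replicate (limma adjusted p of 0.0609 to 0.134), and that of Slc25a22 without IACS replicate 3 or OHT_IACS replicate 1 (0.0502 to 0.0584).

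**Figure D5:**
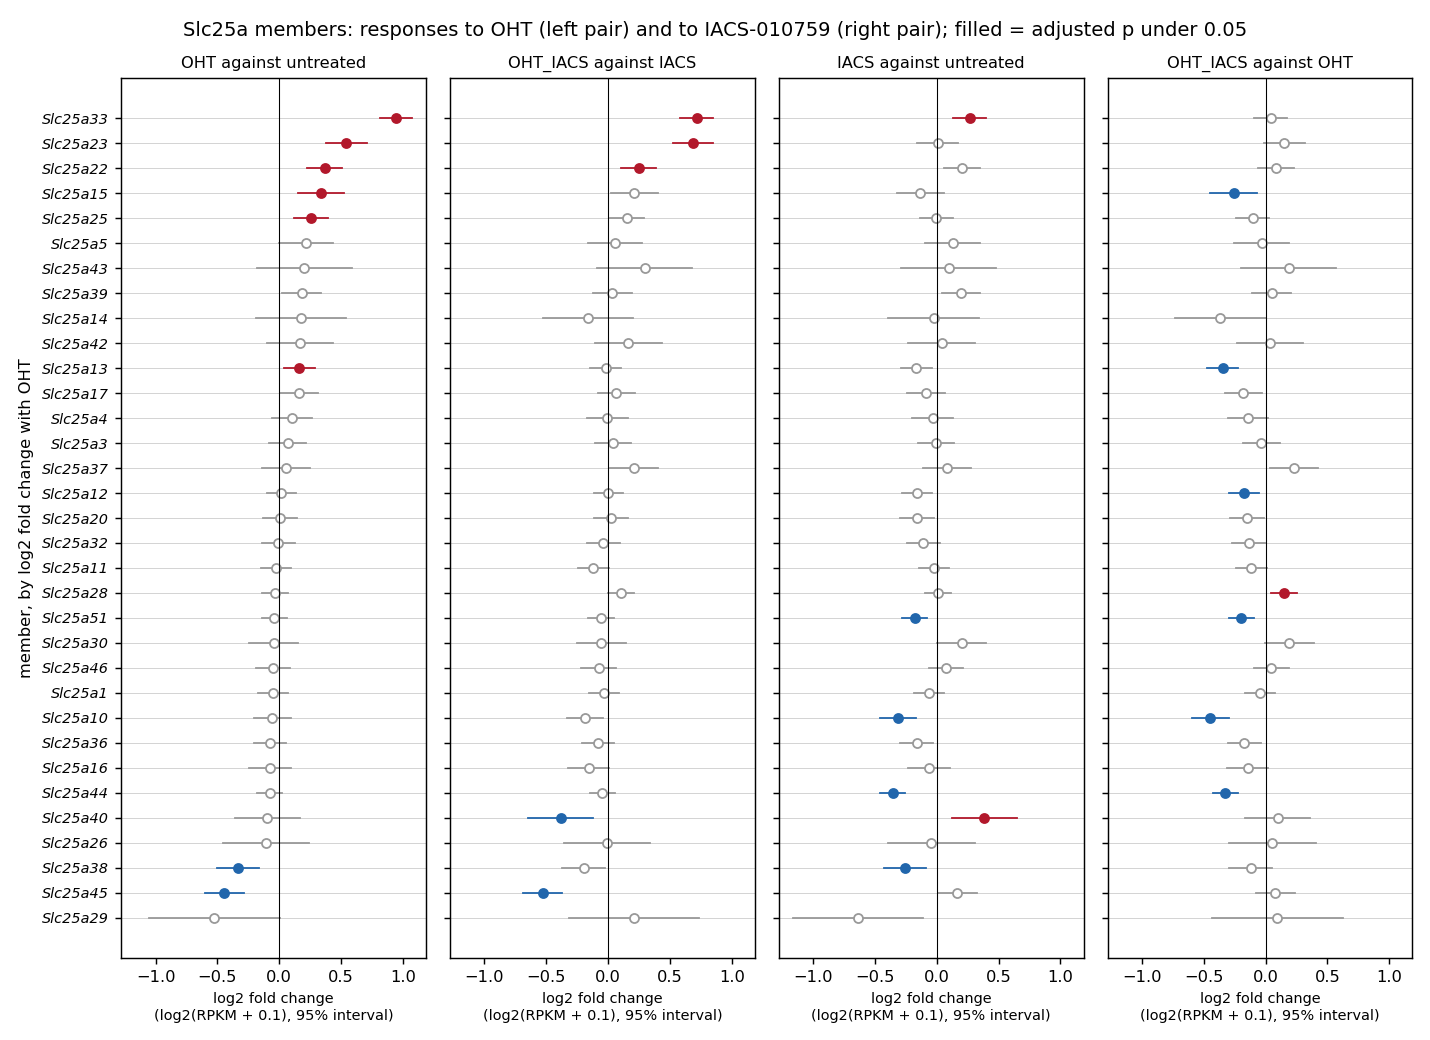
Log2 fold change with its 95% interval (horizontal axes, on log2(RPKM + 0.1)) of 33 of the 34 members in 4 comparisons, with members ordered by their change with OHT and filled points for an adjusted p under 0.05. Slc25a33, Slc25a23 and Slc25a22 are called higher in both comparisons of OHT, and Slc25a10, Slc25a44 and Slc25a51 are called lower in both comparisons of IACS-010759.

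Carriers of like substrates were also compared by their ratio within each library, in which the total cancels only for genes whose reads follow it alike. The ratio of Slc25a33 to Slc25a36 in RPKM was 0.839 ± 0.0552 (SD, n = 3) in untreated cells, 1.71 ± 0.195 with OHT, 1.13 ± 0.0253 with IACS and 1.99 ± 0.175 with both. By RPKM the higher pyrimidine nucleotide carrier was therefore Slc25a36 in untreated cells and Slc25a33 in the other conditions. The slopes of reads on the total were 0.885 for Slc25a33 and 1.14 for Slc25a36, and the part of the total in this order was not tested. The ratio of Slc25a23 to Slc25a25 was 0.820 ± 0.0275 in untreated cells, 1.02 ± 0.188 with OHT, 0.826 ± 0.0241 with IACS and 1.21 ± 0.104 with both. Among the OHT libraries it was 1.22 in replicate 2, of the largest total, and 0.964 and 0.859 in replicates 1 and 3, and the slopes of reads on the total were 1.54 for Slc25a23 and 0.803 for Slc25a25. For the glutathione carriers Slc25a39 and Slc25a40 the ratio was 34.2 ± 3.25, 41.6 ± 1.82, 29.6 ± 2.69 and 40.2 ± 3.27 in the same order, so that Slc25a39 was the main one throughout, and the slopes of their reads on the total were 0.564 and 0.819. For the aspartate/glutamate carriers Slc25a12 and Slc25a13 it stayed between 1.22 and 1.37 on average. These ratios are a description and were not tested.

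The 19 members called in no comparison include the most abundant carriers, Slc25a5, Slc25a1, Slc25a11, Slc25a4 and Slc25a39, as well as the phosphate carrier Slc25a3. Some of them were called with the library total as a covariate. Slc25a1 was then lower with OHT, at -0.13 (limma, adjusted p = 0.0386). Slc25a4 was lower with IACS-010759 in nonprimed and primed cells, at -0.14 and -0.12 (limma, adjusted p = 0.00646 and 0.0047), and Slc25a11 was lower in OHT_IACS against OHT and against IACS, at -0.11 and -0.15 (limma, adjusted p = 0.0268 and 0.00567). The remaining calls gained with the covariate were those of Slc25a22 in IACS against untreated (0.24), Slc25a20 in OHT_IACS against OHT (-0.16), and Slc25a28 and Slc25a37 in OHT_IACS against IACS (0.13 and 0.26). Without the covariate, for Slc25a1 the 95% interval of the log2 fold change was -0.17 to 0.07 with OHT and -0.19 to 0.06 with IACS-010759 in nonprimed cells. For Slc25a3 it was -0.08 to 0.21 and -0.16 to 0.14. Changes larger than these bounds were outside the intervals of this fit for both genes. Their reads followed the total less than in proportion, with slopes of 0.846 and 0.540. The intervals therefore do not exclude larger changes in RNA. For the low Slc25a14, with 20 to 37 reads per library, the interval with OHT ran from -0.19 to 0.54.

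Of the members, 9 have exons that overlap an annotated gene on the other strand (GENCODE vM21, GRCm38), among them the called members Slc25a10 (Gm11788), Slc25a23 (Gm17168), Slc25a25 (Naif1) and Slc25a33 (Gm13068). The libraries were stranded, and whether the counting used the strand is not given in the sources used here, so that reads of such a partner could be counted with the member. Slc25a51, called in both responses to IACS-010759, overlaps Gm25692 on the same strand, which stranded counting would not resolve. Slc25a4 and Slc25a5 are close in sequence and Slc25a5 has a pseudogene, so that their reads may be split between copies.

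Genes that act beside the SLC25 carriers were counted from lists of other symbols. Of 46 listed genes 37 were tested, and with OHT 8 rose and 5 fell, beside shares of 18.2% higher and 18.2% lower among all genes tested. Agk, a kinase that is also part of the translocase inserting carriers into the inner membrane, rose by 0.49 on the log2 scale (SE 0.0647, limma, adjusted p = 6.61e-05), and Tomm70a, an import receptor for carriers, by 0.26. The malate-aspartate shuttle enzymes Got1, Got2 and Mdh2, which work with Slc25a11, Slc25a12 and Slc25a13, rose by 0.23, 0.28 and 0.19. Mdh1, of the same shuttle, had 0.11 and was not called (limma, adjusted p = 0.23). The serine transporter Sfxn1 (0.33), the outer-membrane channel Vdac1 (0.26) and Ucp2 (0.24), an SLC25 protein under another symbol, rose as well. Cpt1a, which makes the acylcarnitines that Slc25a20 carries, fell with a log2 fold change of -0.98 (SE 0.0642, limma, adjusted p = 1.56e-07), whereas Slc25a20 itself had 0.01 and was not called. Sfxn2, Sfxn3, Timm10 and Abcb8 fell with -0.52, -0.38, -0.17 and -0.15.

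With IACS-010759, 2 of the 37 genes rose and 3 fell in nonprimed cells, and 5 rose and 4 fell in primed cells, where 8.15% and 7.74% of all genes tested were called higher and lower in nonprimed cells and 11.9% and 11.8% in primed cells. The calcium uniporter gene Mcu rose in both, by 0.41 and 0.55. Abcb10, a transporter linked to heme synthesis, and Gpd2, the mitochondrial enzyme of the glycerol phosphate shuttle, fell in both, Abcb10 with -0.42 and -0.27 and Gpd2 with -0.29 and -0.19. In OHT_IACS against IACS 9 rose and 3 fell, beside 12.3% and 14.2% of all genes, with Agk at 0.46 and Cpt1a at -0.94. Of the malate-aspartate shuttle enzymes Got2 rose there by 0.24, whereas Got1 (0.04), Mdh1 (0.07) and Mdh2 (0.07) were not called. The interaction called 0 of the 37 in limma, with 4 at an unadjusted p under 0.05, for which the share of all genes was not counted.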

How the data were processed

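Total RNA of FL5.12 MycER cells, depleted of ribosomal RNA, was sequenced as stranded libraries in 4 conditions. The sample labels assign 3 replicates to each condition but do not say whether replicates were separate cultures, and p-values measure the spread between these libraries. According to the submitters' processing notes, TopHat2 2.0.8, SAMtools, featureCounts 1.4.5-p1, DESeq2 and the mouse build mm9 were used, while the gene annotation is not given in the sources used here. The deposited table has RPKM for 21671 genes and every library, followed by output of the authors' own DESeq2 run (log2 fold change, adjusted p-value) for 3 comparisons. These log2 and p-value columns of the authors were not used here, and 0 columns of values per library were left unused.

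The deposited RPKM of all 15451 genes above 0 (100.0%) were whole multiples of the value of 1 read within 1e-06, and these steps gave each gene's reads and length and each library's total. Values were tested on log2(RPKM + 0.1) with limma 3.58.1 in R 4.3.3 (moderated variances, mean-variance trend, two-sided) for 5 comparisons, after scaling by median ratios. Only genes with an RPKM of 1 or more in 3 libraries were tested, 9745 in all. A call is a Benjamini-Hochberg adjusted p under 0.05. Tables and figures were made with pandas 2.3.3, matplotlib 3.10.9 and numpy 2.4.6 under python 3.11.15. The fit and the recovery of reads were tested on simulated data.

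Of the 34 members, 33 are named with their level and 1 is counted but not reported here. Values by library are given for the members called in OHT against untreated, IACS against untreated or OHT_IACS against OHT, limited to the 14 with the largest changes. Slc25a28 is given beyond this limit. The members, role groups, lists of other genes and motifs were chosen with earlier results of these data known. Replicate numbers gave no clear pairing over all libraries, and the main fit had no block. The alternatives were other pseudocounts, filters, scalings and variance models, the replicate number as a block, the library total as a covariate, voom on the recovered reads, and each library left out in turn.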

Additional observations from a re-analysis of the deposited data

How the results depend on the processing

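The number of members called depended on the variance model, the scaling, the covariate and single libraries. With weights per library it was 16 with OHT (8 in the fit reported), 13 with IACS-010759 in nonprimed cells (7), 17 in primed cells (8), 11 in OHT_IACS against IACS (5) and 3 in the interaction (0). Quantile normalization gave 11 members in nonprimed cells. In primed cells the number was 4 with no filter on low values, with RPKM as deposited, with no mean-variance trend and with only the compared groups in the fit. With the library total as a covariate it was 8 in OHT_IACS against IACS. With each library left out in turn it ran from 7 to 13 with OHT (13 without OHT replicate 2), from 4 to 8 in nonprimed cells given IACS-010759 (4 without untreated replicate 1 or IACS replicate 3), from 4 to 12 in primed cells (4 without OHT_IACS replicate 3, 12 without OHT replicate 2) and from 4 to 7 in OHT_IACS against IACS, and it stayed at 0 in the interaction. In primed cells it was also 5 without untreated replicate 1 or 2, OHT replicate 1 or OHT_IACS replicate 1. In each of these cases the cause was not tested.

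Of the 28 calls of single members, 16 held under all of the 24 alternatives. Over all alternatives 561 of 670 values kept their call, 109 lost it and 0 changed sign. Among all genes tested, weights per library moved the calls from 3546 to 5631 with OHT, from 1548 to 2734 in nonprimed cells and from 2310 to 4199 in primed cells, and the total as a covariate moved those with OHT to 2351. With IACS-010759 in nonprimed cells, 794 genes were called higher and 754 lower, or 867 and 469 with RPKM as deposited. Without 1 library the calls fell to 949 in nonprimed cells (untreated replicate 1) and to 1521 in primed cells (OHT_IACS replicate 3). The interaction called 14 genes, or from 3 to 1066 under the alternatives.

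Replicate numbers gave no clear pairing over all conditions. The deviations of same-numbered libraries correlated at -0.172 to 0.104 over 18 pairs, with 1 above 0.1. Those of other-numbered libraries correlated at -0.182 to 0.168 over 36 pairs, with 7 above 0.1. Between untreated and OHT libraries alone, the same-numbered pairs were at 0.0831, 0.104 and 0.0879 and the others at -0.0795 to -0.00878. With the replicate number as a block, 9, 6, 7, 5 and 0 members were called in the 5 comparisons, in the order OHT, IACS in nonprimed cells, IACS in primed cells, OHT_IACS against IACS and interaction. At 11 to 40 reads per library in Slc25a29 and 20 to 37 in Slc25a14, counting error limits what can be seen in the lowest members.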
